A study of Mus musculus with 5 samples.

Results

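ABC transporters and ion-pumping ATPases were followed in sorted mouse haematopoietic stem and progenitor cells (HSPCs), the cells that sit at the top of blood formation. The genes were chosen by symbol alone, with no measured value: the ABC families A to G, the P-type ATPases and the vacuolar ATPase (V-ATPase) subunits and accessory proteins. Of the 11352 genes listed in the authors' deposited table, 75 carried such a symbol, and they comprised 32 ABC genes, 27 P-type genes and 16 V-type genes. A further 41 annotated protein-coding genes of these families, among them Atp6v0c, Atp6v0d2, Atp9a and Abcb5, were not analysed here. RNA-seq of 3 libraries from mice with Cux1 knockdown plus an NrasG12D allele (the NrasG12D libraries) was compared with RNA-seq of 2 libraries from mice with Cux1 knockdown alone (the Cux1-low libraries). NRAS is a small GTPase that the G12D change keeps active, and CUX1 is a transcription factor with a homeodomain. All mice, in both groups, had been given doxycycline together with pI:C, an interferon-inducing synthetic RNA duplex, over 4 weeks. The sort had kept cells negative for lineage markers and CD135 and positive for KIT and SCA1, and polyA RNA was sequenced. The promoters driving the knockdown and the allele, the ages of the mice and whether each library came from its own animal are not given in the sources used here. P-values therefore measure the spread between these samples, which may be technical. No library with unaltered Cux1 or with the Nras allele alone was analysed here, so the comparison is of the allele on a Cux1-knockdown background.

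ABC transporters hydrolyse ATP at conserved nucleotide-binding domains to move lipids, drugs, peptides, haem precursors or sterols across membranes, while the soluble ABCE and ABCF proteins act at the ribosome. P-type ATPases pass through a phosphorylated intermediate and pump sodium and potassium, calcium or copper, and their P4 branch flips phospholipids to the cytosolic leaflet. The V-ATPase couples ATP hydrolysis in its cytosolic V1 sector to proton transport through its membrane V0 sector, and acidifies lysosomes and endosomes. In blood-forming tissue ABCG2 and the ABCB1 pumps are known for expelling dyes and drugs from stem cells, and ABCB10 and ABCB6 for their place in haem synthesis of red cell precursors.

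Values are normalized CPM, the authors' read counts scaled to library size, and 1 read was worth 0.0481 to 0.0608 of this unit with library totals of 16489711 to 20262498 reads in these genes. NrasG12D library 3 stood apart from the other NrasG12D libraries: on the first principal component, which held 73.8% of the variance of all genes, the NrasG12D libraries scored 29.1, 38.01 and -4.16, and the Cux1-low libraries -32.8 and -30.1. Cux1 itself did not differ detectably (log2 fold change 0.03, limma adjusted p = 0.883). Nor did total Nras mRNA (limma adjusted p = 0.642), to which the mutant and normal alleles both contribute. The gate genes Kit and Ly6a, which encodes SCA1, were present in every library, but lower in NrasG12D. Kit had 477, 569 and 816 normalized CPM in NrasG12D, against 1359 and 1373 in Cux1-low (log2 fold change -1.17, limma adjusted p = 0.0538). Ly6a had 24.2, 14.2 and 37.7 in NrasG12D, against 44.7 and 48.7 in Cux1-low (log2 fold change -0.96, limma adjusted p = 0.129). Transcripts of Flt3, which encodes the CD135 protein absent from the sorted cells, were present too, at 165 to 230 normalized CPM in the NrasG12D libraries and 326 and 388 in the Cux1-low libraries. The summed level of 14 stem cell markers was 389 to 936 in the NrasG12D libraries and 1518 and 1568 in the Cux1-low libraries. Of these markers, 13 were called lower in the authors' deposited table, where 9.14% of all genes were. The remaining marker, Slamf1, had a higher mean in NrasG12D (log2 fold change 0.60). At a limma adjusted p under 0.05, 2 of the 14 passed, both lower, as did 1.13% of all genes in either direction. The summed level of 11 erythroid markers was 5989 to 11755 in the NrasG12D libraries and 4893 and 5349 in the Cux1-low libraries. The summed level of 9 pre-B cell markers was 64.8 to 572 in the NrasG12D libraries and 61.5 and 85.3 in the Cux1-low libraries, with NrasG12D library 3 at 64.8. In such sorted pools, fewer cells of a type and less RNA per cell cannot be told apart.

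The RefSeq promoter table held a window of 250 bases before to 50 bases after the start for 51 of the 75 genes on build GRCm38.p6, and some stretches bear on the groups described here. The vacuolar pump genes are known targets of the lysosomal transcription factors TFEB and TFE3 at E-boxes of the form TCACGTG. That word, on either strand, lay in 4 of 12 V-type windows (33.3%), 2 of 21 P-type windows, 1 of 29 ABC windows and 3.77% of all 32851 windows. The 4 V-type windows are shown because genes that share the word did not share a sign: Atp6v0b, Atp6v0d1 and Atp6v0e had higher means in NrasG12D and Atp6v1a a lower one, none of them past the limma threshold. Capitals mark the word on either strand, with a run longer by a base where both strands match at overlapping positions. They lie at chr4:117887349-117887378 on the minus strand, chr8:105566051-105566080 on the minus strand, chr17:26676386-26676415 on the plus strand and chr16:44139374-44139403 on the minus strand.
Atp6v0b: tgtgcgcgggggTCACGTGgggtcggcgca
Atp6v0d1: gccctactgcggTCACGTGAgacgcggtgc
Atp6v0e: ttagcgcgccgaTCACGTGAgcctctgttg
Atp6v1a: tttttttttaaaTCACGTGAtaggcttaac
A match is a description of the letters and says nothing about binding in these cells.

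Another set of stretches belongs to ABC genes on chromosome 5, where Abcb1a, Abcb1b and Abcb4 are neighbours on the plus strand and Abcg3 lies further along on the minus strand. They are shown because the neighbours Abcb1b and Abcb4 had opposite differences between the groups, and because Abcg3 is the single gene past the limma threshold. Capitals mark the CCAAT word and the GC box GGGCGG on either strand within the 250 bases before the start, at chr5:8797897-8798146 (plus strand), chr5:8893471-8893720 (plus strand) and chr5:104982718-104982967 (minus strand).
Abcb1b: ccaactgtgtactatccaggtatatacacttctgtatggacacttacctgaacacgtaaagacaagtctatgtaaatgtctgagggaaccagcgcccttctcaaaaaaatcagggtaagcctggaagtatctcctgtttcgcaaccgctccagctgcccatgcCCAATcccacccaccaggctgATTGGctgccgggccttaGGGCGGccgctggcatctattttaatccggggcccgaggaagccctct
Abcb4: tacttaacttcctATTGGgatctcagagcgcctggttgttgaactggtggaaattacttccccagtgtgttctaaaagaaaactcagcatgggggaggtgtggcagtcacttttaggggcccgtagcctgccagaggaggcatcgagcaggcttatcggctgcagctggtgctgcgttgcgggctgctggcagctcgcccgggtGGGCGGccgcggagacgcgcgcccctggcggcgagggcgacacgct
Abcg3: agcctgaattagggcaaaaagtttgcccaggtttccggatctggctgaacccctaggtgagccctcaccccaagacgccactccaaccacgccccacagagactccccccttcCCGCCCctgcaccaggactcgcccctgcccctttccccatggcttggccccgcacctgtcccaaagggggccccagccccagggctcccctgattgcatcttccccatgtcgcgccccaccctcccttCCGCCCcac
Among all windows, 37.4% held CCAAT and 35.7% held GGGCGG on either strand. CCAAT was in 27.6% of ABC, 19.05% of P-type and 33.3% of V-type windows, each below the share of all windows. GGGCGG was in 65.5% of ABC, 76.2% of P-type and 9 of 12 V-type windows. The start that RefSeq gives for Abcb1a lies upstream of the one in the gene annotation used for coordinates, so its window is not shown.

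As families, the genes showed no shared shift between the groups, and the individual genes diverged. Log2 fold changes were on the log2(normalized CPM + 1) scale. Their median was -0.02 in the 32 ABC genes, -0.08 in the 27 P-type genes and 0.10 in the 16 V-type genes, against -0.00 in all 11352 genes. The small ABC and P-type medians changed sign with the libraries used, to 0.0156 and 0.0319 without Cux1-low library 1 and to 0.0207 and 0.0294 without NrasG12D library 1. The median absolute log2 fold change was 0.37 in ABC, 0.29 in P-type and 0.17 in V-type genes, against 0.27 in all genes. Values were higher in NrasG12D for 38 of the 75 genes and lower for 37.

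In limma with Benjamini-Hochberg adjustment over all genes, 1 of the 75 genes passed 0.05, the ABC gene Abcg3, and it was lower in NrasG12D; over all genes 1.13% were called, 29 higher and 99 lower. At an unadjusted limma p under 0.05, 12 genes were higher and 14 lower, or 26 of 75, where 31.4% of all genes passed. In the authors' deposited table, 7 of the 75 genes were called higher and 9 lower at an adjusted p under 0.05, where 6.97% of all genes were called higher and 9.14% lower. Without NrasG12D library 3, limma called 16 of the 75 higher and 18 lower, where 18.0% of all genes were higher and 19.4% lower. The NrasG12D and Cux1-low values did not overlap for 21 genes that were higher and 16 that were lower, where 26.5% of all genes were higher and 27.0% lower without overlap. Pooled over the 75 genes, none of these shares was far above its background. Of the 32 ABC genes alone, the authors' deposited table called 5 higher and 4 lower. The 8 ABCB genes held 4 of these higher and 2 of these lower calls. Without overlap, 12 ABC genes were higher and 8 lower (62.5%, against 53.5% of all genes). At an unadjusted limma p under 0.05, 7 ABC genes were higher and 6 lower (40.6%). The description below turns on single genes.

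**Figure D1:**
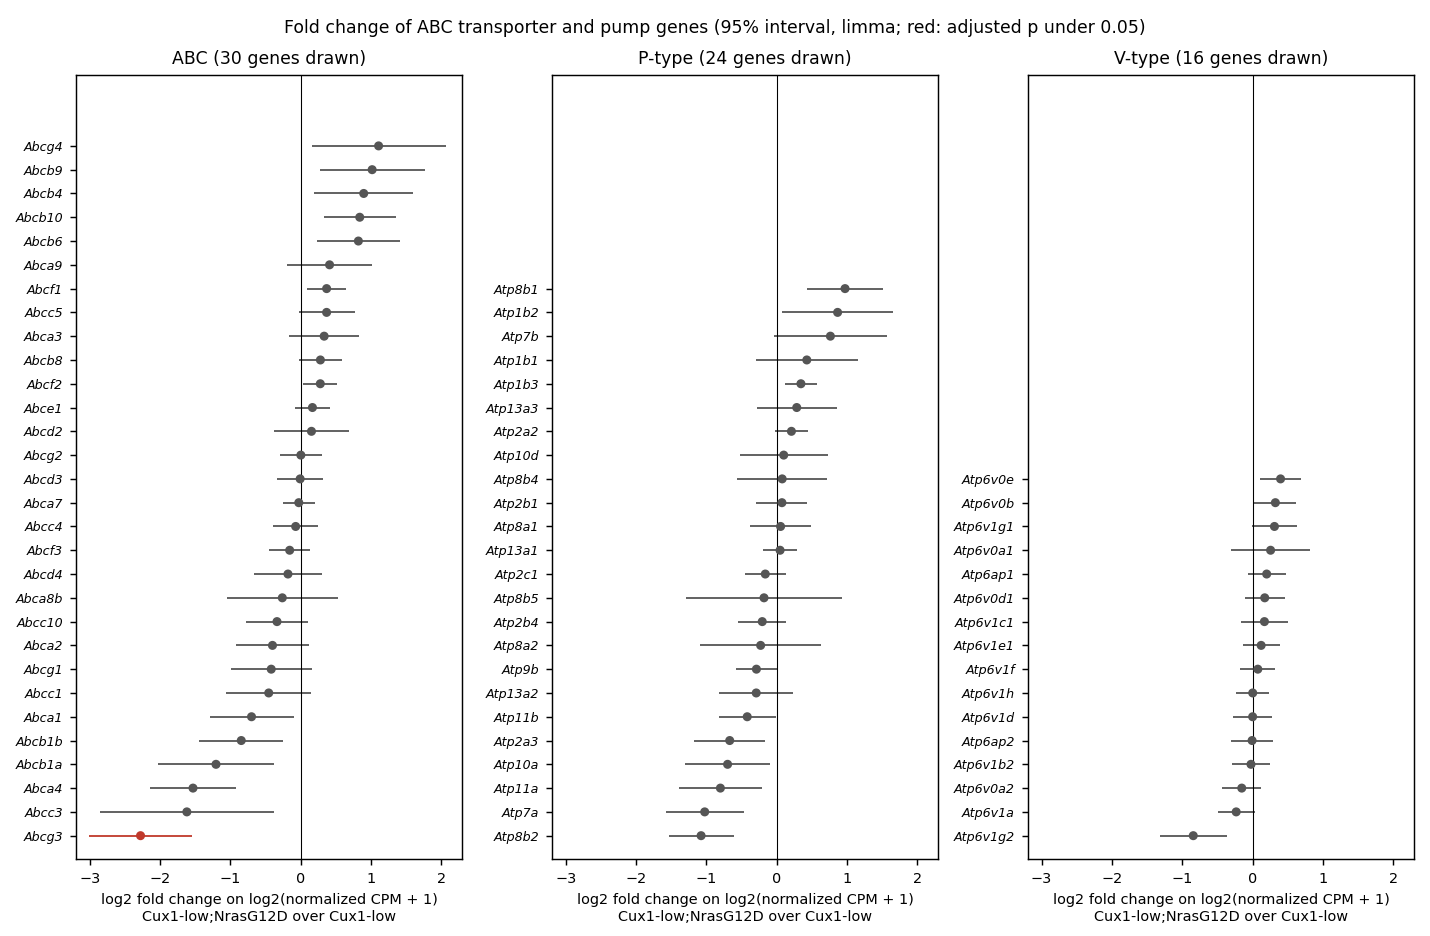
Log2 fold change, NrasG12D over Cux1-low, on the log2(normalized CPM + 1) scale for ABC, P-type and V-type genes, with bars for the 95% interval of the limma fit (3 NrasG12D and 2 Cux1-low libraries). ABC genes spread from -2.28 for Abcg3 to 1.11 for Abcg4, and V-type genes lay close to 0 apart from Atp6v1g2 at -0.84.

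Among ABC genes, members of the ABCG family went apart. Abcg3, a rodent gene of the family that holds the stem cell dye pump (chromosome 5, 104935057 to 104982718, minus strand, mm10), had 1.74, 2.28 and 4.37 normalized CPM in NrasG12D libraries 1 to 3, against 17.99 and 15.5 in the Cux1-low libraries. All NrasG12D libraries lay far below both Cux1-low libraries, with library 3 nearest to them. Abcg3 fell in NrasG12D: the mean was 2.80 ± 1.39 (SD, n = 3) in NrasG12D and 16.7 ± 1.80 (SD, n = 2) in Cux1-low, 5.97-fold lower, with a log2 fold change of -2.28 (SE 0.31 and adjusted p = 0.0395 in limma). The call did not hold without Cux1-low library 1 (limma adjusted p = 0.365), Cux1-low library 2 (0.328), NrasG12D library 1 (0.160) or NrasG12D library 2 (0.0777), while the log2 fold change stayed between -2.07 and -2.56 over these and the fit without library 3. The summed stem cell markers, at 476, 389 and 936 in NrasG12D and 1518 and 1568 in Cux1-low, were also lower in every NrasG12D library and highest of these in library 3, and their part in the result was not tested.

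Abcg2, the pump behind the dye-excluding side population of stem cells, had 106, 133 and 110.0 normalized CPM in NrasG12D and 118 and 114 in Cux1-low. The groups overlapped, and the log2 fold change of 0.00 had a 95% interval of -0.30 to 0.30. Abcg4, a sterol exporter, had 62.1, 87.6 and 29.7 normalized CPM in NrasG12D libraries 1 to 3, against 26.2 and 23.4 in Cux1-low. Its NrasG12D values were all higher, but library 3 was close to the Cux1-low level, and limma did not call it (log2 fold change 1.11, SE 0.40, adjusted p = 0.124). The authors' deposited table called Abcg4 higher (adjusted p = 0.0264). Abcg1, another sterol exporter, had 31.5 and 35.4 in NrasG12D libraries 1 and 2 and 55.3 in library 3, against 48.7 and 58.1 in Cux1-low, so library 3 lay between the Cux1-low values.

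The chromosome 5 cluster held opposite differences in neighbouring genes. Abcb1a and Abcb1b encode the mouse P-glycoproteins, broad drug efflux pumps, and Abcb4 encodes a phosphatidylcholine translocator known for its place in bile. Abcb1b (8798147 to 8866315) had 30.5, 21.6 and 41.2 normalized CPM in NrasG12D, against 55.6 and 54.0 in Cux1-low. Abcb1a (8660077 to 8748575) was barely expressed, with 1.74, 0.628 and 2.49 in NrasG12D, which rest on 34, 11 and 41 reads, against 4.66 and 4.86 in Cux1-low, which rest on 95 and 101 reads. Both P-glycoprotein genes were below the Cux1-low level in every NrasG12D library.

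The log2 fold change was -0.85 (SE 0.25 and adjusted p = 0.0910 in limma) for Abcb1b and -1.20 (SE 0.35 and adjusted p = 0.0892 in limma) for Abcb1a, short of the threshold. The authors' deposited table called both lower, with adjusted p-values of 0.0265 and 0.0217. Reads of the P-glycoprotein genes are partly exchangeable, since 17.6% of the 50-base words of Abcb1a exons also occur elsewhere in the transcriptome, in Abcb1b, as do 11.6% of those of Abcb1b, in Abcb1a. Abcb4 (8893717 to 8959231), in contrast, had 221, 368 and 169 in NrasG12D, against 122 and 135 in Cux1-low. Every NrasG12D value was higher, library 2 most of all, with a log2 fold change of 0.90 (SE 0.30 and adjusted p = 0.106 in limma); the authors' deposited table called it higher (adjusted p = 0.0258). The pre-B cell markers summed to 279, 572 and 64.8 in the same NrasG12D libraries and 61.5 and 85.3 in Cux1-low. The erythroid markers summed to 8409, 11755 and 5989 in NrasG12D and 4893 and 5349 in Cux1-low. Both sums had the same order of the NrasG12D libraries as Abcb4 and Abcg4. In library 3 the pre-B sum lay between the Cux1-low sums and the erythroid sum above both. The part of either cell type in the values of Abcb4 and Abcg4 was not tested, and the pre-B genes Pax5, Rag1 and Vpreb2 were not among the listed genes.

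The mitochondrial ABCB genes and Abcb6 act in haem and iron-sulphur cluster metabolism. Abcb10, an inner membrane transporter needed for haem synthesis in red cell precursors (chromosome 8, 123952459 to 123983122, minus strand), had 194, 215 and 127 normalized CPM in NrasG12D libraries 1 to 3, against 97.4 and 96.8 in Cux1-low. Abcb6, a porphyrin transporter, had 84.5, 131 and 69.7 in NrasG12D, against 51.6 and 51.6 in Cux1-low. For both genes every NrasG12D library was above the Cux1-low level and library 3 was the lowest of them.

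The log2 fold change was 0.84 (SE 0.22 and adjusted p = 0.0791 in limma) for Abcb10 and 0.82 (SE 0.25 and adjusted p = 0.0938 in limma) for Abcb6. The authors' deposited table called both higher (adjusted p = 0.00493 and 0.0180). Of the exonic 50-base words of Abcb6, 50.01% are shared with Gm29253, an overlapping same-strand gene model, so its level is uncertain. Abcb8, another inner membrane transporter, had 133, 124 and 105 in NrasG12D, against 96.1 and 102 in Cux1-low, a log2 fold change of 0.28 (SE 0.13 and adjusted p = 0.187 in limma).

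Genes of haem and iron-sulphur cluster synthesis were read beside these transporters. Of 14 measured, 13 had higher means in NrasG12D and none passed the limma threshold; 8 passed an unadjusted p under 0.05, all of them higher, where 31.4% of all genes passed in either direction, and the median log2 fold change was 0.62 against -0.00 in all genes. In the authors' deposited table the calls were 7 higher and 0 lower of the 14, where 6.97% of all genes were higher. The mitochondrial glycine carrier Slc25a38 had 125, 149 and 78.9 normalized CPM in NrasG12D, against 45.9 and 61.2 in Cux1-low (log2 fold change 1.09, limma adjusted p = 0.0765). Urod, a haem synthesis enzyme, had 288, 354 and 218 in NrasG12D, against 166 and 165 in Cux1-low (log2 fold change 0.76, limma adjusted p = 0.0784). The 11 measured erythroid markers were all higher in mean, with sums of 8409, 11755 and 5989 in NrasG12D and 4893 and 5349 in Cux1-low, while the globin genes Hba-a1, Hbb-bs and Hbb-bt were not among the listed genes. NrasG12D library 2 was highest and library 3 lowest for Abcb10, Abcb6, Slc25a38 and Urod as for the erythroid sum, and the part of erythroid cells in these values was not tested.

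**Figure D2:**
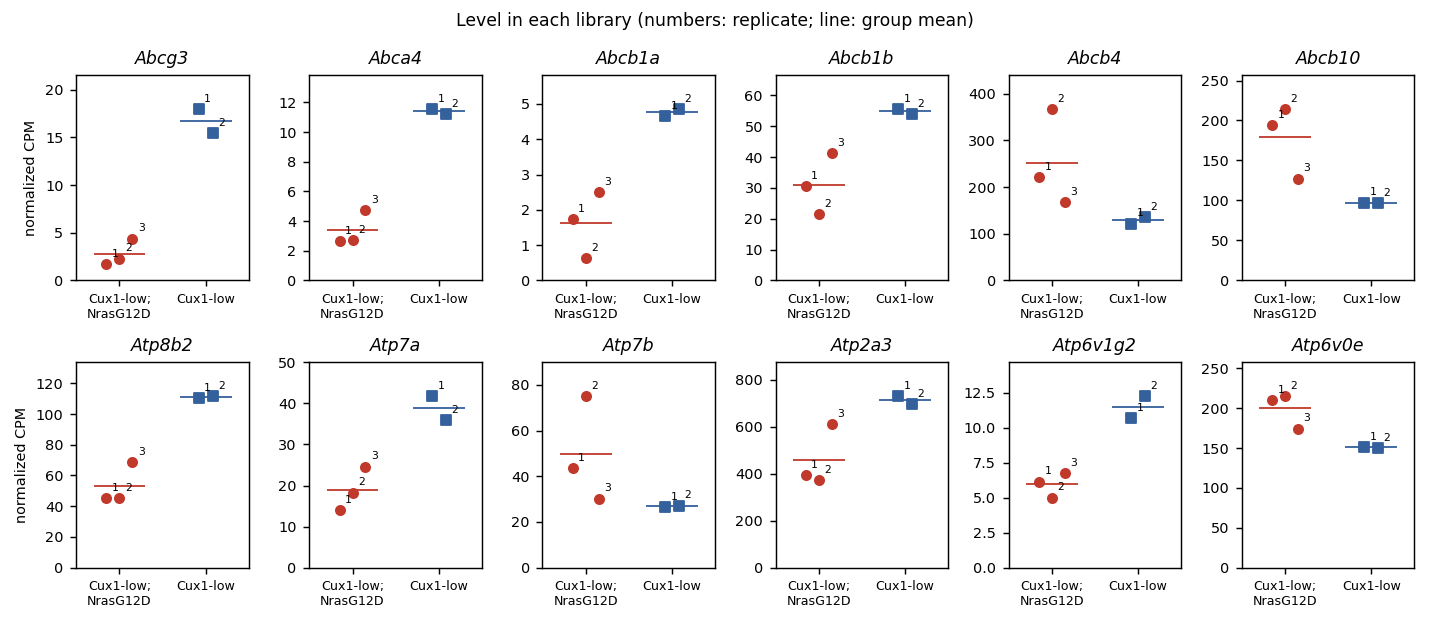
Normalized CPM (vertical axis, from 0) in each of the 3 NrasG12D and 2 Cux1-low libraries for 12 genes, 1 point per library with its replicate number and a line at the group mean. For Abcg3 the NrasG12D points at 1.74 to 4.37 lie below the Cux1-low points at 17.99 and 15.5, and for Abcb10 the points at 127 to 215 lie above those at 97.4 and 96.8.

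Abcb9, a lysosomal peptide transporter related to the TAP complex, had 17.7, 23.0 and 10.4 normalized CPM in NrasG12D, against 6.96 and 8.13 in Cux1-low. Its NrasG12D values were all higher, library 3 by little (log2 fold change 1.02, SE 0.31, limma adjusted p = 0.0969), and the authors' deposited table called it higher (adjusted p = 0.0232). The TAP peptide transporter genes themselves, which carry no ABC symbol in mice, had the opposite sign: Tap1 had 309, 258 and 305 in NrasG12D, against 488 and 454 in Cux1-low (log2 fold change -0.70, limma adjusted p = 0.0508). All 4 measured genes of that list (Tap1, Tap2, Tapbp and Tapbpl) had lower means in NrasG12D without overlap, as did 27.0% of all genes. None passed limma, and 1, Tap1, was called lower in the authors' deposited table, where 9.14% of all genes were. Summed dendritic cell markers, from cells that express this pathway strongly, were 624, 440 and 518 in NrasG12D and 1334 and 1058 in Cux1-low. That sum includes Flt3, the gene of the gate protein CD135, at 196, 165 and 230 in NrasG12D and 326 and 388 in Cux1-low. Of the 8 markers measured, 7 had lower means in NrasG12D, but they did not move alike. Bst2 overlapped between the groups (log2 fold change -0.16), and Itgax, a low gene, had a higher mean (log2 fold change 0.17). The part of dendritic cells in the Tap1 values was not tested.

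ABCA genes, which move lipids, differed in sign: of 7, 2 were higher and 2 lower in NrasG12D without overlap (26.5% and 27.0% of all genes). Abca4, the retinoid flippase of photoreceptors (chromosome 3, 122044443 to 122180123, plus strand), had 2.67, 2.74 and 4.74 normalized CPM in NrasG12D, against 11.6 and 11.2 in Cux1-low. All NrasG12D libraries were below both Cux1-low libraries, with a log2 fold change of -1.53 (SE 0.26 and adjusted p = 0.0508 in limma). Several alternatives did call it: limma adjusted p was 0.0460 with columns rescaled to the same sum, 0.0486 at the same upper quartile, 0.0464 without the variance trend and 0.00195 without NrasG12D library 3. Leaving out any other library gave limma adjusted p-values of 0.0921 to 0.400, and the authors' deposited table called Abca4 lower (adjusted p = 3.99e-05). Abca1, the cholesterol and phospholipid exporter that loads apolipoproteins, had 5.39, 7.48 and 9.72 in NrasG12D, against 11.7 and 13.4 in Cux1-low, without overlap (log2 fold change -0.70, limma adjusted p = 0.122).

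Abca3, the phospholipid transporter of lung surfactant, had 112, 184 and 123 normalized CPM in NrasG12D, against 107 and 109 in Cux1-low (log2 fold change 0.33, limma adjusted p = 0.304). Abca9, a low gene, had 2.67, 2.74 and 2.61 in NrasG12D, against 1.27 and 2.36 in Cux1-low (log2 fold change 0.41, limma adjusted p = 0.304). Both were higher in every NrasG12D library, though close to a Cux1-low value in some. Abca2 had 152 and 128 in NrasG12D libraries 1 and 2 but 219 in library 3, against 223 and 206 in Cux1-low. Abca7, a phospholipid transporter, had 131, 136 and 138 in NrasG12D and 140 and 135 in Cux1-low, so the groups overlapped. Among 11 measured sterol genes of the LXR and SREBP pathways, 5 had higher and 6 lower means, and none passed limma. The authors' deposited table called 1 higher (the lipoprotein receptor Scarb1) and 1 lower (the nuclear receptor Rxra), against 6.97% and 9.14% of all genes.

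ABCC genes, exporters of organic anions and conjugates, included the ABC gene with the lowest log2 fold change after Abcg3. Abcc3 had 1.59 and 1.43 normalized CPM in NrasG12D libraries 1 and 2 and 7.11 in library 3, against 11.7 and 9.24 in Cux1-low. Library 3 was close to the Cux1-low level, and the spread left it uncalled (log2 fold change -1.62, SE 0.52, limma adjusted p = 0.102). Abcc1, a glutathione conjugate exporter, had 88.8, 89.0 and 159 in NrasG12D, against 152 and 145 in Cux1-low, with library 3 above both. Abcc4, an exporter of cyclic nucleotides, had 85.3, 96.4 and 105 in NrasG12D, against 109 and 92.6 in Cux1-low. Abcc5 had 46.3, 65.6 and 51.6 in NrasG12D, against 43.0 and 40.1 in Cux1-low (log2 fold change 0.37, limma adjusted p = 0.183). Abcc4 overlapped between the groups and Abcc5 did not.

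Of the 4 ABCD genes, most of them peroxisomal, 0 passed an unadjusted limma p under 0.05 (31.4% of all genes). Of the ribosomal ABC genes, Abcf1 and Abcf2 passed it, both higher in NrasG12D, and Abce1 and Abcf3 did not. Abcd4, which acts in lysosomal cobalamin export, had 18.9, 16.9 and 14.0 normalized CPM in NrasG12D, against 16.2 and 21.9 in Cux1-low, and overlapped. Of 8 peroxisomal partner genes none passed limma, 3 had higher and 5 lower means, and the authors' deposited table called 1 lower (9.14% of all genes).

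Abce1, the ribosome recycling factor, had 320.0, 368 and 361 in NrasG12D, against 315 and 307 in Cux1-low (log2 fold change 0.17, 95% interval -0.08 to 0.42). Abcf1, a translation initiation factor, had 267, 271 and 224 in NrasG12D, against 190.4 and 202 in Cux1-low (log2 fold change 0.37, limma adjusted p = 0.102). Abcf2 had 263, 274 and 239 in NrasG12D, against 212 and 213 in Cux1-low (log2 fold change 0.28, limma adjusted p = 0.127). Abcf3 had 85.0, 90.2 and 85.8 in NrasG12D, against 87.6 and 108 in Cux1-low, and overlapped. Of 9 translation partners 7 had higher means and none passed limma. The authors' deposited table called 2 higher (6.97% of all genes), the initiation factor Eif2s1 and the termination factor Etf1.

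Among the 27 P-type genes, 0 passed the limma threshold, 3 higher and 7 lower ones had an unadjusted p under 0.05 (31.4% of all genes), and the nearest to it were a P4 flippase and the copper pump Atp7a. The authors' deposited table called 2 of them higher and 4 lower (6.97% and 9.14% of all genes), so the counts were near the background. Atp8b2, a plasma membrane phospholipid flippase (chromosome 3, 89939481 to 89963508, minus strand), had 45.3, 45.5 and 68.7 normalized CPM in NrasG12D, against 110.2 and 112 in Cux1-low. All NrasG12D values were lower, with library 3 the highest of them, at a log2 fold change of -1.07 (SE 0.19 and adjusted p = 0.0525 in limma). It was called in limma with columns rescaled to the same sum (adjusted p = 0.0493), and the authors' deposited table called it lower (adjusted p = 7.49e-05).

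Of the 12 P4 genes, 8 had lower and 4 higher means in NrasG12D, with a median log2 fold change of -0.20. Atp11a, a phosphatidylserine flippase, had 15.03, 11.7 and 19.3 in NrasG12D, against 32.4 and 22.4 in Cux1-low (log2 fold change -0.80, limma adjusted p = 0.0978), and the authors' deposited table called it lower (adjusted p = 0.0347). Atp10a, a phosphatidylcholine flippase, had 43.6, 38.7 and 71.2 in NrasG12D, against 88.5 and 73.7 in Cux1-low (log2 fold change -0.70, limma adjusted p = 0.126). Neither overlapped, and for Atp10a library 3 was next to the lower Cux1-low value.

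Atp11b had 226, 254 and 325 in NrasG12D, against 390.1 and 323 in Cux1-low, and library 3 overlapped with them. Atp8b1, the flippase whose loss causes cholestasis in humans, went the other way: 4.31, 5.36 and 3.89 in NrasG12D, against 1.86 and 1.73 in Cux1-low (log2 fold change 0.97, SE 0.23, limma adjusted p = 0.0725). Its NrasG12D values rest on 64 to 94 reads and its Cux1-low values on 36 and 38, and the authors' deposited table called it higher (adjusted p = 0.00324).

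Most P4 flippases need the chaperone subunit Tmem30a, and scramblases undo their work. Tmem30a had 104, 99.1 and 110.1 normalized CPM in NrasG12D, against 145 and 116 in Cux1-low (log2 fold change -0.31, limma adjusted p = 0.152). All 6 measured genes of this list had lower means in NrasG12D, with a median log2 fold change of -0.45. None passed limma, 4 passed an unadjusted p under 0.05 (31.4% of all genes), and the authors' deposited table called 2 lower (9.14% of all genes). Those were Plscr4, with 11.4, 17.2 and 24.9 in NrasG12D against 43.2 and 37.7 in Cux1-low, and the scramblase Ano6, with 73.2, 74.5 and 106 in NrasG12D against 139 and 126 in Cux1-low. The stem cell markers were lower in the same libraries, 13 of 14 with a lower mean. Of these 2 passed limma, as did 1.13% of all genes in either direction, and their part in the flippase values was not tested.

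The paired copper pumps differed in sign. Atp7a, which delivers copper to secreted enzymes and exports it (chromosome X, 106027276 to 106124926, plus strand), had 14.1, 18.3 and 24.6 normalized CPM in NrasG12D, against 41.8 and 35.9 in Cux1-low. Atp7b, its paralogue known for copper export in liver, had 43.6, 75.04 and 30.3 in NrasG12D, against 26.6 and 27.1 in Cux1-low. Neither gene overlapped between groups, though library 3 was near the Cux1-low level for Atp7b.

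Atp7a had a log2 fold change of -1.02 (SE 0.23 and adjusted p = 0.0705 in limma) and Atp7b of 0.76 (SE 0.34 and adjusted p = 0.174 in limma). The authors' deposited table called Atp7a lower (adjusted p = 0.00333). Of 10 measured copper-handling genes, 9 had higher means in NrasG12D with a median log2 fold change of 0.36, and none was called by limma or in the authors' deposited table. The copper chaperone Atox1, which hands copper to both pumps, had 101, 100.1 and 79.3 in NrasG12D, against 72.4 and 74.4 in Cux1-low (log2 fold change 0.34, limma adjusted p = 0.152). The importer Slc31a1 had 83.0, 85.9 and 67.8 in NrasG12D, against 65.0 and 58.0 in Cux1-low (log2 fold change 0.35, limma adjusted p = 0.148).

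The beta subunit genes of the sodium pump, which guide the pump to the membrane, had higher means in NrasG12D in all 3 cases. Atp1b3 had 279, 291 and 267 normalized CPM in NrasG12D, against 221 and 217 in Cux1-low, a narrow spread around a small difference (log2 fold change 0.34, SE 0.10, limma adjusted p = 0.0838). Atp1b2 had 84.0, 133 and 54.3 in NrasG12D, against 42.5 and 49.7 in Cux1-low (log2 fold change 0.87, limma adjusted p = 0.137), and the authors' deposited table called it higher (adjusted p = 0.0460). Of the exonic words of Atp1b3, 9.71% occur elsewhere, mostly in the gene model Gm1848.

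Atp1b1 was at 6.99 to 13.9 in NrasG12D and 5.68 and 8.73 in Cux1-low, and overlapped. Of 5 partner genes of the pump all had lower means and none passed limma. The authors' deposited table called 1 lower, the sodium-calcium exchanger Slc8a1 (9.14% of all genes).

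Calcium pumps were led by Atp2a3, the endoplasmic reticulum pump isoform typical of blood cells (chromosome 11, 72961169 to 72993044, plus strand). It had 393, 374 and 609 normalized CPM in NrasG12D, against 729 and 694 in Cux1-low. Every NrasG12D value was lower, library 3 by the least (log2 fold change -0.67, SE 0.21, limma adjusted p = 0.1004), and the authors' deposited table called it lower (adjusted p = 0.0473). The housekeeping isoform Atp2a2 had 321, 361 and 351 in NrasG12D, against 301 and 293 in Cux1-low, a log2 fold change of 0.21 with a 95% interval of -0.03 to 0.45. The interval of Atp2a2 includes 0, so an opposite movement of the isoforms was not shown.

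Atp2b1 and Atp2b4, calcium exporters of the plasma membrane, were at 43.0 to 51.6 and 49.4 to 56.8 in NrasG12D, against 39.1 and 49.1, and 55.6 and 69.9, in Cux1-low. Atp2c1, the Golgi calcium and manganese pump, had 79.3, 80.9 and 96.5 in NrasG12D, against 96.7 and 94.3 in Cux1-low, and overlapped. Of 11 calcium-handling partners, 3 had higher and 8 lower means. None passed limma, and the authors' deposited table called 1 higher, the lectin chaperone Canx (6.97% of all genes). Of the P5 pumps, Atp13a1, an endoplasmic reticulum enzyme, had 280, 280 and 258 in NrasG12D, against 249 and 278 in Cux1-low. Atp13a2, a lysosomal polyamine exporter, had 395, 306 and 538 in NrasG12D, against 470 and 515 in Cux1-low, with library 3 above both. Both pumps overlapped between the groups.

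**Figure D3:**
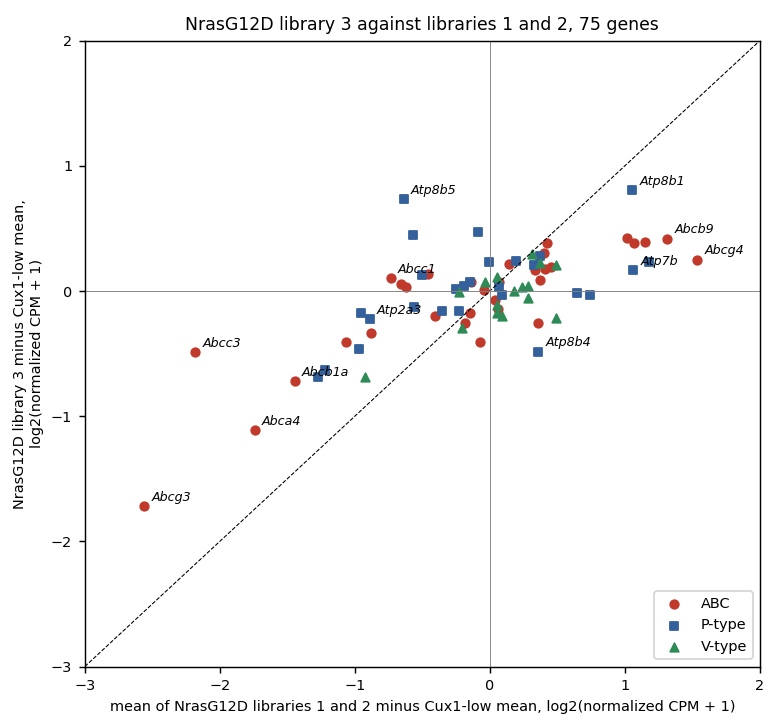
Each gene's difference from the Cux1-low mean in NrasG12D library 3 (vertical axis) against the mean of NrasG12D libraries 1 and 2 (horizontal axis), both on the log2(normalized CPM + 1) scale, with the dashed line of equal values. Of 29 genes at least 0.5 from 0 on the horizontal axis, all lie nearer to 0 on the vertical axis or on its other side.

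NrasG12D library 3 set how firmly these genes could be read. In 29 of the 75 genes the mean of NrasG12D libraries 1 and 2 differed from the Cux1-low mean by at least 0.5 on the log2 scale, and these comprised 14 ABC, 14 P-type and 1 V-type gene. In library 3 the difference had the same sign in 21 of the 29 and was smaller in all 21, and in 8, among them Abca2, Abcc1, Abcg1, Atp1b1, Atp13a2, Atp8a2 and Atp8b5, it had the opposite sign. The median position of library 3 on the way from the Cux1-low mean to that of libraries 1 and 2 was 0.27 over the 29 genes, where 0 is the Cux1-low mean and 1 the mean of libraries 1 and 2. The 29 were picked by libraries 1 and 2, so these counts are a description. The labels give nothing that sets library 3 apart from the other NrasG12D libraries.

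The V-ATPase genes held close to their Cux1-low levels. Summed over the 16 genes, normalized CPM was 2011, 1984 and 1759 in NrasG12D libraries 1 to 3, against 1757 and 1798 in Cux1-low, and library 3 lay between the Cux1-low sums. None of the 16 passed limma, 10 had higher and 6 lower means, and 2 higher and 1 lower passed an unadjusted p under 0.05, a smaller share than the 31.4% of all genes. Their median absolute log2 fold change, 0.17, was the smallest of the groups. The median log2 fold change of 0.10 depended on scaling, at 0.0333 with columns rescaled to the same sum, where the median of all genes moved to -0.06.

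In the membrane V0 sector, 4 of 5 genes had higher means. Atp6v0e, a small V0 subunit, had 211, 215 and 174 normalized CPM in NrasG12D, against 152 and 150.4 in Cux1-low (log2 fold change 0.40, SE 0.12, limma adjusted p = 0.0958). Atp6v0b, a proteolipid of the proton-carrying ring, had 169, 143 and 140.5 in NrasG12D, against 112 and 128 in Cux1-low (log2 fold change 0.32, limma adjusted p = 0.139). Both were without overlap, and for Atp6v0e library 3 was the lowest NrasG12D value.

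The other V0 genes overlapped or were smaller in difference. Atp6v0d1, which joins the V0 ring to the rotor, had 88.1, 83.4 and 74.2 in NrasG12D, against 70.5 and 74.3 in Cux1-low, and overlapped. Of the large V0 subunits, Atp6v0a1 had 86.6, 104 and 57.6 in NrasG12D, against 70.5 and 63.8 in Cux1-low. Atp6v0a2 had 108, 108 and 126 in NrasG12D, against 122 and 131 in Cux1-low. For both, library 3 was on the other side of a Cux1-low value from libraries 1 and 2. Tcirg1, the gene of another large subunit, carries no ATP6 symbol and had 124, 98.1 and 86.0 in NrasG12D, against 96.3 and 114 in Cux1-low (log2 fold change -0.04).

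In the catalytic V1 sector the stalk isoform gene Atp6v1g2, known mainly from neurons (chromosome 17, 35233660 to 35238767, plus strand), stood out from the rest. It had 6.15, 5.02 and 6.74 normalized CPM in NrasG12D, against 10.7 and 12.3 in Cux1-low. Libraries of the same group were close together and the groups lay apart, library 3 included, with a log2 fold change of -0.84 (SE 0.20 and adjusted p = 0.0727 in limma). The authors' deposited table called it lower (adjusted p = 0.0112), the only V-type gene it called.

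The widely expressed isoform Atp6v1g1 had the opposite sign, with 40.6, 39.4 and 39.5 in NrasG12D against 28.9 and 35.3 in Cux1-low (log2 fold change 0.31, limma adjusted p = 0.174), and 19.2% of its exonic words occur elsewhere, in Gm13453 among others. Atp6v1a, the ATP-hydrolysing subunit, had 81.5, 91.1 and 81.2 in NrasG12D, against 103 and 96.4 in Cux1-low (log2 fold change -0.23, limma adjusted p = 0.194), without overlap. Its partner in the catalytic ring, Atp6v1b2, had 208, 200.4 and 174 in NrasG12D, against 192 and 202 in Cux1-low (log2 fold change -0.02, 95% interval -0.29 to 0.25). Atp6v1h, a regulatory subunit, had 116, 113 and 123 in NrasG12D, against 117 and 118 in Cux1-low, a log2 fold change of 0.00 with a 95% interval of -0.24 to 0.24. Of the accessory proteins, Atp6ap1 had 274, 288 and 238 in NrasG12D, against 232 and 230.5 in Cux1-low (log2 fold change 0.20, limma adjusted p = 0.268). Atp6ap2, the prorenin receptor, had 178, 166 and 140.3 in NrasG12D and 168 and 156 in Cux1-low, and overlapped.

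**Figure D4:**
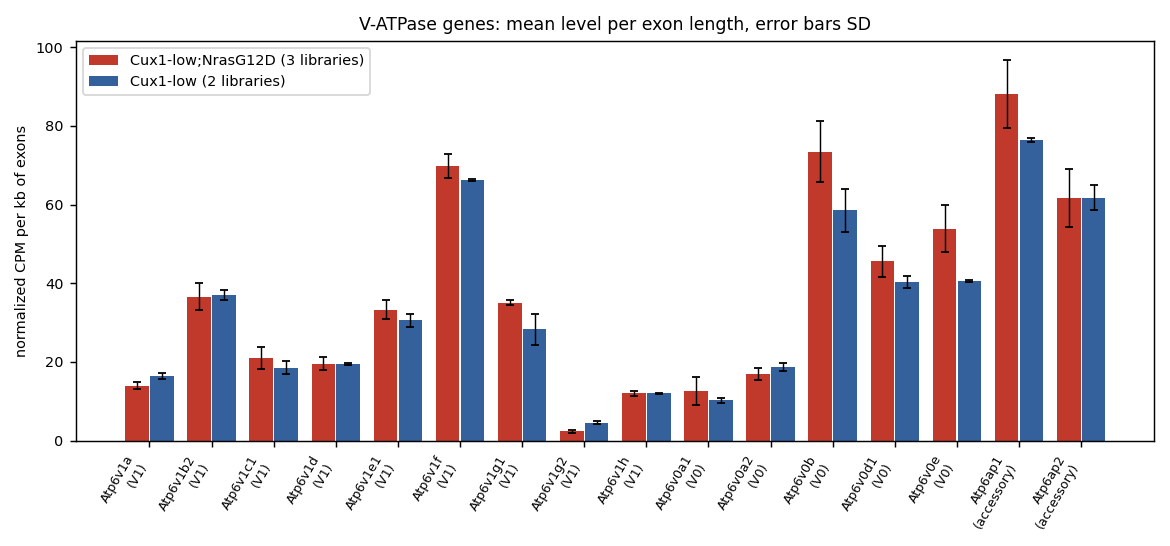
Mean normalized CPM per kb of exon (vertical axis, from 0) for the 16 V-ATPase genes, grouped as V1 sector, V0 sector and accessory proteins, with bars for the 3 NrasG12D and the 2 Cux1-low libraries and error bars for the SD. Atp6ap1 averaged 88.2 in NrasG12D and 76.5 in Cux1-low, and Atp6v1g2, the lowest, 2.38 and 4.57.

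Genes of lysosomes and of V-ATPase assembly gave the setting of these values. Of 28 TFEB-linked lysosomal genes, 12 had higher and 16 lower means, the median log2 fold change was -0.05, and 0 were called by limma or in the authors' deposited table; 2 higher and 3 lower passed an unadjusted p under 0.05, where 31.4% of all genes did. Tfeb had 23.7, 27.0 and 25.3 normalized CPM in NrasG12D, against 25.2 and 26.3 in Cux1-low. The smallest p-values of the list belonged to Lamp2, a lysosomal membrane protein, and Sqstm1, an autophagy receptor, with log2 fold changes of -0.34 and -0.31. Of 15 V-ATPase assembly and regulator genes, 7 had higher and 8 lower means, and none passed limma. The authors' deposited table called 3 lower (Ncoa7, Oxr1 and Dmxl2), where 9.14% of all genes were. Ncoa7, which binds the V1 sector, had a log2 fold change of -0.93 (limma adjusted p = 0.0525).

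Between genes, levels were compared as normalized CPM per kb of exon. In NrasG12D the highest levels per kb among the 75 genes were those of Atp1b3 (117 ± 4.93) and Abcf2 (101 ± 6.85), against 91.7 ± 1.29 and 82.8 ± 0.108 in Cux1-low (SD, n = 3 and n = 2). Next came Atp6ap1 with 88.2 ± 8.66 in NrasG12D and 76.5 ± 0.466 in Cux1-low, and Atp2a3 with 86.9 ± 24.8 in NrasG12D and 135 ± 4.75 in Cux1-low. Atp6ap1 and Atp2a3 did not differ in NrasG12D beyond their spread, and Atp2a3 was the highest of all 75 in Cux1-low. Within the V-ATPase, Atp6v0b averaged 73.5 ± 7.66 per kb in NrasG12D and 58.6 ± 5.52 in Cux1-low, and Atp6v1f, a rotor subunit gene, 69.8 ± 3.11 and 66.2 ± 0.276. Their order was within the spread in NrasG12D, while in Cux1-low Atp6v1f had the higher mean. The V-type genes had a median level per kb of 29.4 in Cux1-low, against 9.15 for ABC and 9.85 for P-type genes.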

How the data were processed

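The authors' deposited table holds 11352 genes, each above 1 in 3 or more libraries. Per the file headers its columns are a CPM per library and the authors' own comparison, with log2 fold change, mean log2 CPM, a score (likelihood ratio), p-value and adjusted p-value. The CPM columns sum to 971746 to 1026780, so these deposited signal values had been scaled by a composition factor and are called normalized CPM. The submitters' processing notes list the tools TopHat, HTSeq and edgeR, with neither version nor role, and 2 builds, hg19 (human) and mm10 (mouse). Neither label nor header says whether counting used strand, so overlapping and antisense genes could not be separated.

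Within each library all values were whole multiples (tolerance 0.001) of a smallest value, taken as 1 read. It served only to judge depth, because the files hold no counts. The test planned for normalized values was therefore used in place of the count test: limma 3.58.1 with a variance trend (R 4.3.3) on log2 of the normalized CPM plus a pseudocount of 1, over all 5 libraries and all genes that reached 1 in 2 libraries or more (0 removed), with Benjamini-Hochberg adjustment at 0.05. All tests are 2-sided. This scale understates the change of low genes. A limma test on simulated data with known changes was run first. Fold ratios are of group means, and values after ± are SDs.

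Members, gene lists and tests were chosen with earlier results of these data known, and lists are described by counts and medians. Named genes are those past the threshold, those with the largest non-overlapping change, those with the highest levels and genes from a preset set of symbols in each group. Some preset symbols, among them Atp8a1, Atp8b4, Atp10d and Atp13a3, enter only the counts and medians. Other members and list genes were named after their values were seen. A few genes enter the counts without being named. Alternatives were pseudocounts of 0.1 and 0.5, other filters, scalings and variance models, a replicate block and leaving out each library. Exon lengths, coordinates and shared 50-base words come from GENCODE release M21 (mm10). The rest was done in Python 3.11.15 (pandas 2.3.3, numpy 2.4.6, scipy 1.17.1, matplotlib 3.10.9).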

Additional observations from a re-analysis of the deposited data

How the results depend on the processing

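Abcg3 kept its direction in all 14 alternatives. It lost its limma call when Cux1-low library 1, Cux1-low library 2, NrasG12D library 1 or NrasG12D library 2 was left out, where fewer samples were fitted, and over all genes 3, 3, 3 and 10 were then called higher and 0, 0, 0 and 12 lower. Leaving out 1 library in turn, the ABC genes called higher ranged from 0 to 8 and those called lower from 0 to 9. The P-type genes ranged from 0 to 5 higher and 0 to 8 lower, and the V-type genes from 0 to 3 higher and 0 to 1 lower, each upper end being the fit without NrasG12D library 3. With columns rescaled to the same sum, at the same upper quartile and without the variance trend, 2 ABC genes were called lower, Abca4 joining Abcg3, and with rescaling 1 P-type gene, Atp8b2; the cause was not tested. Over all genes, rescaling gave 31 higher and 182 lower calls, and the upper quartile 34 and 168. The V-type median log2 fold change of 0.10 was 0.0333 with rescaling, 0.0555 at the upper quartile and 0.0661 to 0.136 when a library was left out. Leaving out a library moved the P-type median of -0.08 between -0.180 and 0.0319 and the ABC median of -0.02 between -0.0724 and 0.0207, and both were positive without Cux1-low library 1 or NrasG12D library 1. The remaining pseudocount, filter and variance settings moved no count of called members.

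With the replicate number as a block, 8 ABC, 6 P-type and 3 V-type genes were called higher and 9, 7 and 1 lower, the V-type median was 0.136, and over all genes 1892 were higher and 2271 lower. That block gives NrasG12D library 3, which has no partner, no weight. For number 1, the correlation of deviations from the group means was -0.192. The deviations of the Cux1-low libraries mirror each other exactly, so this check cannot exclude pairing or a shared batch. Whether equal numbers mark a pair is not known, and the main fit used no pairing. Of the 26 members with an unadjusted limma p under 0.05, 0 changed sign in any alternative, and of the other 49, 20 did. Depth limits low genes such as Abcb1a and Atp8b1, with at most 101 reads per library.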
